A study of Mus musculus with 8 samples.

Results

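The cytosolic ribosomal protein genes were followed across mouse induced pluripotent stem cells that carry or lack a proofreading defect of the mitochondrial DNA polymerase. Members were the rows of the expression table whose symbol is Rpl or Rps followed directly by a digit, plus Rplp0, Rplp1, Rplp2 and Rpsa. Names with -ps (processed pseudogenes), names beginning with Rps6k (kinases) and Rps19bp1 (a binding protein) were left out. This gave 85 of 37305 gene rows, of which 52 belong to the large (60S) and 33 to the small (40S) subunit. By name and role, 77 are canonical ribosomal proteins (46 of the 60S and 31 of the 40S subunit) and 8 are paralog copies: Rpl3l, Rpl7l1, Rpl10l, Rpl22l1, Rpl36al, Rpl39l, Rps27l and Rps4y2.

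Each ribosome joins a small subunit, which reads the mRNA, to a large subunit, which forms the peptide bond, and it needs the canonical proteins in fixed proportions. In vertebrates most of their mRNAs start with a C followed by a run of pyrimidines, the 5′ terminal oligopyrimidine (TOP) tract, through which mTORC1 signalling sets their translation. Some of the genes have paralog copies, several of them made by reverse transcription of an mRNA, that are known for tissue-restricted use, such as Rpl10l in the male germ line and Rpl3l in striated muscle.

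RNA sequencing was done on 5 libraries from mutator (mut) lines, homozygous for D257A in POLG, the subunit that copies mitochondrial DNA and proofreads it, and on 3 libraries from wild-type (wt) lines of littermate embryos. All cells had been kept on growth-arrested feeder cells with LIF and passaged on gelatin before the total RNA was taken, so remaining feeder RNA is possible in both groups. The column headers of mut replicates 1 and 2 share a code, and so do those of the 3 wt replicates; if the latter names an embryo, genotype and embryo cannot be told apart. Age, sex, passage number and clone history are not stated in the labels.

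Levels are in FPKM, the fragment number of a gene divided by its transcript length and by the mapped fragments of the library, which allows comparison between genes. The depth of the libraries is unknown. Mut replicates 1 and 2 differed by a median of 0.0278 on the log2 scale over the canonical genes, against 0.202 to 1.07 in the 12 other pairs of libraries within a group, and were averaged and counted as 1 sample. Tests therefore compared 4 mut with 3 wt samples, and p-values measure the spread between these samples only. Polg itself was at 9.48 ± 0.539 FPKM in wt (SD, n = 3) and 10.2 ± 1.93 FPKM in mut (SD, n = 4), a level that cannot show a substitution, so the genotype labels were not checked by it. All 13 pluripotency markers listed were at 1 FPKM or more in at least 1 library, and 0 of them passed the test. Their mean log2(FPKM + 1) overlapped between the groups, at 5.51 to 5.74 in the wt libraries and 5.03 to 5.58 in the mut libraries. Their summed level was 1080 to 1357 FPKM in wt and 675 to 929 FPKM in mut, a difference carried mainly by Tdgf1 (group means of 329.5 and 127.5 FPKM) and Pou5f1 (263 and 148 FPKM), named after their values were seen. Of the 13 markers, 8 had a log2 change below 0, and 3 did after rescaling every library to the same sum (TPM). Relative to the median of all genes tested, the median of these markers was -0.15 before and -0.04 after rescaling. Summed feeder fibroblast markers (14 listed, 0 below 1 FPKM in every library) were at 84.2 to 113 FPKM in wt, 338, 336 and 246 FPKM in mut replicates 1 to 3, and 104 and 162 FPKM in mut replicates 4 and 5. Summed primitive endoderm markers (11 listed, 2 below 1 FPKM in every library) were at 38.8 to 47.7 FPKM in wt and 46.3 to 278 FPKM in mut, with the highest value in mut replicate 5. Their part in the results that follow was not tested. In bulk RNA, fewer cells of a type and less RNA per cell cannot be told apart.

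Among the ribosomal protein genes, 2 paralog copies passed the test as lower in mut cells and 0 of the 77 canonical genes passed in either direction. Both calls were lost when any wt replicate was left out. Rpl10l fell by 1.23 and Rpl7l1 fell by 1.17 on the log2(FPKM + 1) scale. The transcripts of the canonical proteins moved together from library to library instead, with wt replicate 1 and mut replicate 5 at the top, so that the spread within a group exceeded the difference between the groups. Tests were made with limma and Benjamini-Hochberg adjustment over 11949 genes whose mean reached 1 FPKM, with calls at an adjusted p below 0.05. Of these genes, 7.49% were called in either direction, 4.54% lower and 2.95% higher in mut. Of the 84 ribosomal protein genes tested, 2 were called lower, 0 higher and 82 did not pass. The share called lower was thus smaller than over all genes tested. Rpl3l, with a mean of 0.124 FPKM, was not tested. The median log2 change was -0.14 over these 84 genes and -0.03 over all genes tested.

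Rpl10l, the autosomal copy of the X-linked Rpl10, was at 7.61, 8.36 and 8.19 FPKM in the wt libraries and at 2.47, 2.19, 2.03, 3.77 and 3.60 FPKM in mut replicates 1 to 5. Every mut library was below every wt library. The mut mean was 2.93 ± 0.881 FPKM (SD, n = 4) and the wt mean 8.05 ± 0.393 FPKM (SD, n = 3), a ratio of 0.364. The log2 change was -1.23 (SE 0.197, limma adjusted p = 0.0270). Rpl10, whose protein joins the large subunit late and completes the peptidyl transferase region, was at 279.9, 142 and 121 FPKM in wt and 142, 145, 128, 153 and 223 FPKM in mut. Its groups overlapped and its log2 change was -0.09 (limma adjusted p = 0.873).

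The coding sequence of Rpl10l is of the same length as that of Rpl10, 642 bases, and lies in a single exon (GENCODE M21, GRCm38, chr12:66283379-66284401, minus strand), where the Rpl10 transcript has 7 exons. The copies differ at 98 positions, an identity of 84.7%, and the longest run they share is 23 bases. The first 90 coding bases of both are shown because they bear on how far reads of the copies can be told apart; capitals mark the 13 positions that differ, and those of Rpl10l are at chr12:66284268-66284357 on the minus strand.
Rpl10: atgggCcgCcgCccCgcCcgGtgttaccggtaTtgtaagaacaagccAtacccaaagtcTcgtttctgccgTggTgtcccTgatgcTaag
Rpl10l: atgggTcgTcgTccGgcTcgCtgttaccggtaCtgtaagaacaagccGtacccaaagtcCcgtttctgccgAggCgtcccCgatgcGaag
No coding stretch longer than 23 bases fits both copies without a mismatch. The labels state neither the read length nor the mismatches allowed in mapping, and how far reads of Rpl10 add to the Rpl10l level was not tested. As a share of its parent, Rpl10l was at 2.72%, 5.89% and 6.76% in wt and at 1.74%, 1.51%, 1.58%, 2.46% and 1.62% in mut, so the share was below every wt value in each mut library, while wt replicate 1 was closer to the mut libraries than to the other wt libraries.

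Rpl7l1, a relative of Rpl7 that is known in human cells as a factor of 60S assembly, was at 62.4, 50.3 and 51.8 FPKM in wt and at 15.7, 15.3, 25.9, 25.3 and 30.97 FPKM in mut. Again the groups did not overlap, and the averaged pair of mut replicates 1 and 2 was the lowest. The mut mean was 24.4 ± 6.48 FPKM (SD, n = 4) and the wt mean 54.8 ± 6.60 FPKM (SD, n = 3), a ratio of 0.445. The log2 change was -1.17 (SE 0.248, limma adjusted p = 0.0374). Its coding sequence (chr17:46773907-46782672, minus strand, 6 exons) matches that of Rpl7 in 54.0% of alignment columns, with 142 gap columns counted as differences. The longest run they share is 10 bases. Rpl7 itself was at 864, 629.5 and 607 FPKM in wt and 568, 563, 400, 464 and 676 FPKM in mut, with overlapping groups and a log2 change of -0.42 (limma adjusted p = 0.335).

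Both calls rested on every wt library. The adjusted p of Rpl10l was 0.0900, 0.128 and 0.110 without wt replicate 1, 2 or 3, and 0.0660 without the averaged pair of mut replicates 1 and 2. That of Rpl7l1 was 0.106, 0.133 and 0.111 without wt replicate 1, 2 or 3, 0.0620 without the pair and 0.0667 without mut replicate 4. The log2 changes in all fits that left out a sample stayed between -1.33 and -1.11 for Rpl10l and between -1.30 and -0.98 for Rpl7l1. Without both libraries that stood apart, wt replicate 1 and mut replicate 5, a setting added after seeing the data, the changes were -1.35 and -1.20 and the adjusted p 0.102 and 0.108. With the mean log2(FPKM + 1) of the feeder markers as a covariate the changes were -0.91 (adjusted p = 0.152) and -0.89 (adjusted p = 0.211). Neither passed with no filter on low values (adjusted p = 0.0633 and 0.077) or after rescaling to TPM (log2 changes of -0.79 and -0.67, adjusted p = 0.0891 and 0.303). The rescaling raised the median of all genes tested as well.

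The remaining paralog copies did not pass, although all 7 tested copies had a log2 change below 0 (median -0.53); after rescaling to TPM 5 of 7 were below 0 (median -0.03). Relative to the median of all genes tested, the median of the copies was -0.50 before and -0.40 after rescaling. Their median log2 change was -0.21 without wt replicate 1 (6 of 7 below 0), -0.85 without wt replicate 3 and -0.24 with the feeder covariate (5 of 7 below 0). Rpl22l1, which in the mouse is controlled by its paralog Rpl22, was at 78.0, 44.8 and 30.4 FPKM in wt and 34.7, 40.6, 23.3, 30.8 and 43.2 FPKM in mut. Rpl36al, a copy of Rpl36a with a single coding exon, was at 181, 73.0 and 69.4 FPKM in wt and 53.6, 55.3, 50.3, 45.2 and 114 FPKM in mut. Both had overlapping groups, with wt replicate 1 the highest, and log2 changes of -0.52 and -0.66 (limma adjusted p = 0.327 and 0.326). Rps27l, a target of p53 in human and mouse cells, was at 103, 59.4 and 40.4 FPKM in wt and 78.2, 81.1, 21.3, 44.8 and 85.4 FPKM in mut. Rps4y2, which GENCODE M21 lists as a transcribed processed pseudogene on chromosome 6, was at 60.01, 40.3 and 25.1 FPKM in wt and 13.5, 13.1, 26.7, 33.4 and 43.6 FPKM in mut. In both, mut replicate 5 exceeded wt replicate 2, and the groups overlapped. Rpl39l, a copy of Rpl39 used in male germ cells, was close to the limit of the test at 0.969 to 2.46 FPKM in wt and 0.474 to 2.24 FPKM in mut, and Rpl3l did not exceed 0.188 FPKM in any library.

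Set against their parents, 3 copies had shares that did not overlap between the groups. In levels, 28.5% of all genes tested had all mut samples on the same side of all wt samples, and 16.2% had them all below. The matching figure for ratios was not computed. For Rpl22l1 the share of Rpl22 was 11.8%, 11.9% and 8.52% in wt and 7.66%, 8.84%, 7.32%, 8.36% and 7.16% in mut (with replicates 1 and 2 averaged, no mut sample reached the lowest wt sample). For Rpl7l1 the share of Rpl7 was 7.22%, 8.0% and 8.52% in wt and 2.76%, 2.71%, 6.46%, 5.45% and 4.58% in mut. The difference in mean log2 ratio to the parent, mut minus wt, was -0.45 for Rpl22l1, -0.78 for Rpl7l1 and -1.38 for Rpl10l. Each difference had p = 0.0571 in an exact two-sided permutation test, the smallest that 4 against 3 samples allow, and 0.133 after Benjamini-Hochberg adjustment over the 7 pairs, so none passed. The other 4 pairs overlapped, with differences of -0.50 for Rpl36al, -0.32 for Rpl39l, -0.37 for Rps4y2 and 0.01 for Rps27l.

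**Figure D1:**
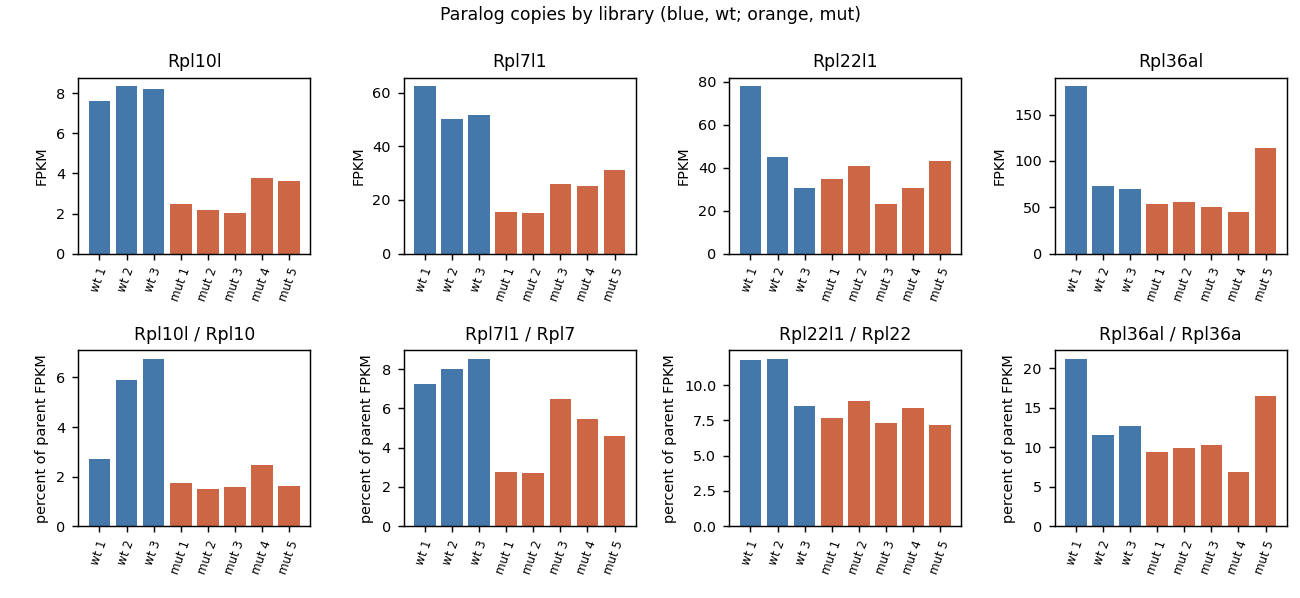
Level of 4 paralog copies by library in FPKM (upper row) and as a percent of the FPKM of the parent gene (lower row); bars are single libraries, blue for wt and orange for mut. Rpl10l and Rpl7l1 are lower in each mut library than in each wt library, whereas Rpl36al is highest in wt replicate 1 and, within mut, in replicate 5.

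The canonical genes were strongly transcribed in every library. Their means over the 8 libraries ran from 9.36 FPKM for Rps16 to 1107 FPKM for Rps24, with a median of 248 FPKM. All 85 genes together made up 16.8%, 13.4% and 12.3% of the FPKM of nuclear protein-coding genes in wt and 15.9%, 16.0%, 11.9%, 14.4% and 17.9% in mut. Their summed level was 33890, 20920 and 18820 FPKM in wt and 22810, 22990, 16250, 20060 and 33640 FPKM in mut. The libraries with the highest sum, wt replicate 1 and mut replicate 5, belong to different groups, and the group means of 24540 ± 8166 FPKM (SD, n = 3) and 23210 ± 7468 FPKM (SD, n = 4) differed by less than 1 SD. The log2 ratio of the sums, mut to wt, was -0.08, against a within-group SD of 0.446. The subunits kept step: the ratio of summed canonical 60S to 40S levels was 1.54, 1.64 and 1.58 in wt and 1.53, 1.53, 1.65, 1.72 and 1.63 in mut.

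**Figure D2:**
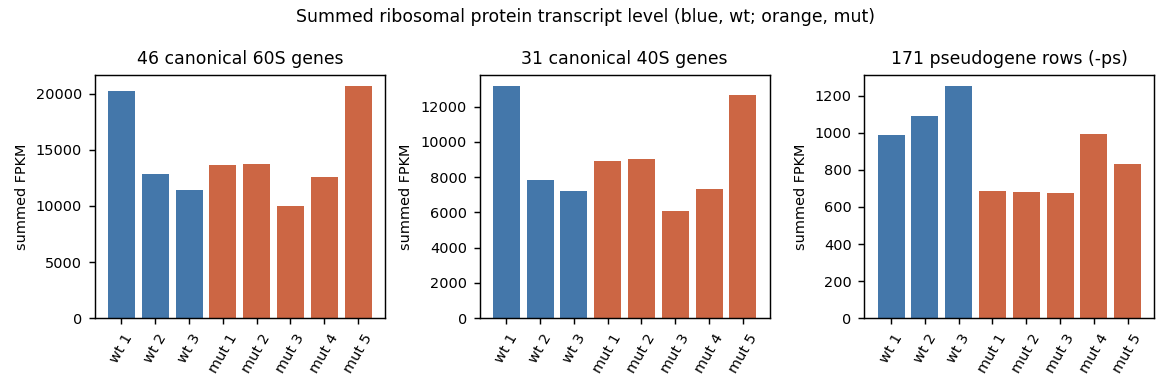
Summed FPKM of the 46 canonical 60S genes, the 31 canonical 40S genes and the 171 processed-pseudogene rows by library; bars are single libraries, blue for wt and orange for mut, each axis starting at 0. Wt replicate 1 and mut replicate 5 are the highest for both subunits, whereas the pseudogene rows are highest in wt replicate 3 at 1251 FPKM.

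Between mut and wt, the canonical genes had log2 changes from -0.55 to 1.05 with a median of -0.10. Of the 77, 51 were below 0 and 26 above 0, and this balance turned with the scaling, since 75 were above 0 after rescaling to TPM and 53 after scaling to the protein-coding sum. Relative to the median of all genes tested, the canonical median was -0.07 before rescaling, 0.04 after TPM rescaling and -0.03 after protein-coding sum scaling. The lowest limma adjusted p was 0.155, and 1 canonical gene had an unadjusted p below 0.05, compared with 30.3% of all genes tested. The 46 genes of the 60S subunit had a median of -0.11 (30 below 0) and the 31 genes of the 40S subunit a median of -0.09 (21 below 0). Groups overlapped in 76 of the 77 canonical genes, where over all genes tested 28.5% had all mut samples on the same side of all wt samples. The direction of the canonical median also depended on single libraries: it was 0.16 without wt replicate 1, -0.24 without wt replicate 3, 0.05 without mut replicate 3, -0.24 without mut replicate 5, -0.03 without both wt replicate 1 and mut replicate 5, and 0.16 with the feeder covariate.

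**Figure D3:**
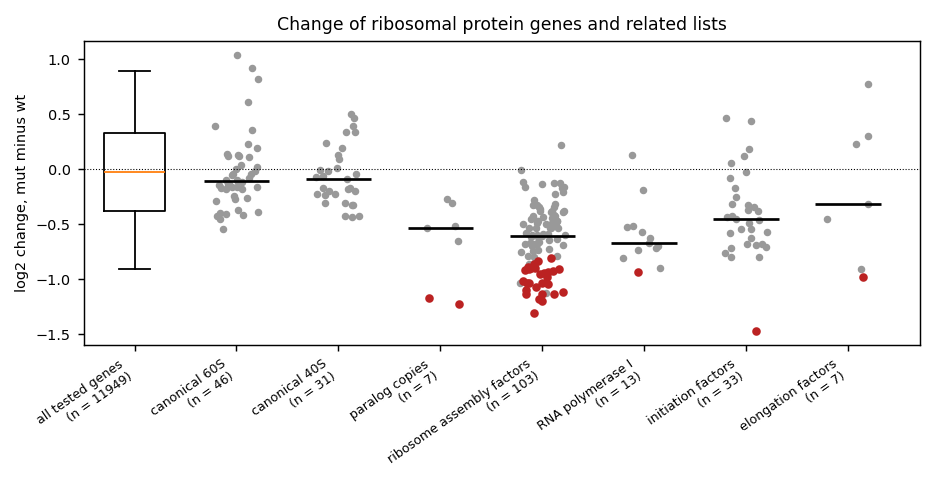
Log2 change of FPKM (mut minus wt) for all tested genes (box, quartiles with whiskers from the fifth to the 95th percentile) and for each gene of the ribosomal protein classes and related lists (points; red, called at an adjusted p below 0.05; bar, median). The canonical 60S and 40S genes centre at -0.11 and -0.09 with 0 called, and the assembly factors at -0.61 with 28 called lower.

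The 2 largest changes among canonical genes were in the P-stalk, the flexible arm of acidic proteins on the large subunit that recruits and activates the elongation factors. Rplp2 was at 313, 127 and 73.4 FPKM in wt and 219, 229.6, 208, 271 and 612 FPKM in mut. Rplp1 was at 1024, 454 and 172 FPKM in wt and 704, 686, 455, 813 and 1723 FPKM in mut. In both genes mut replicate 5 was the highest library and wt replicate 3 the lowest, and wt replicate 1 lay within the range of the mut libraries. The log2 changes of 1.05 (SE 0.542) and 0.92 (SE 0.640) did not pass (limma adjusted p = 0.228 and 0.355). They were 0.57 and 0.26 without wt replicate 3, 0.70 and 0.56 without mut replicate 5, and 1.61 and 1.54 without wt replicate 1. Rplp0, which anchors the P1 and P2 proteins, was at 558, 300.1 and 247 FPKM in wt and 270.4, 269, 171.3, 279 and 666 FPKM in mut, with a log2 change of -0.18. Rpl12, which binds beside Rplp0 at the stalk base, had a log2 change of 0.02. The 4 stalk genes together had a median log2 change of 0.47, 3 of them above 0, a median that lies between the values of Rplp1 and Rpl12.

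The other structural groups described here had median log2 changes between -0.26, for the pair Rpl5 and Rpl11, and -0.01. Rpl5 and Rpl11 bind the 5S rRNA and, when not built into ribosomes, inhibit Mdm2. Rpl5 was the steadiest canonical gene across wt, at 553, 543 and 491 FPKM, and was at 473, 479, 440.4, 484 and 555 FPKM in mut. Rpl11 was at 267, 130.1 and 117 FPKM in wt and 111, 117, 89.3, 101 and 209 FPKM in mut, so the transcript of Rpl11 varied with the library and that of its partner Rpl5 hardly did. The 7 genes around the exit of the peptide tunnel (Rpl17, Rpl19, Rpl23a, Rpl26, Rpl31, Rpl35 and Rpl39) had a median log2 change of -0.16, with 2 above 0. On the small subunit the 3 genes at the mRNA entry and decoding site (Rps2, Rps3 and Rps23) had a median of -0.01. The 9 genes of the 40S head had a median of -0.06, with 3 above 0, and Rps27a, which is made as a fusion with ubiquitin, had a log2 change of -0.19.

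Rpl36 and Rps16 showed how wide the spread within a group could be. Rpl36, a small protein of the 60S surface, was at 194, 52.6 and 16.0 FPKM in wt and 96.9, 97.9, 39.8, 86.4 and 282 FPKM in mut. Rps16, a protein of the 40S head, was at 35.6, 4.54 and 2.83 FPKM in wt and 2.25, 2.66, 5.27, 4.44 and 17.3 FPKM in mut. In Rpl36 the wt libraries alone spanned most of the range, and without wt replicate 3 its log2 change of 0.83 (limma adjusted p = 0.535) became -0.036. Rps16 was the lowest canonical gene by far and had the largest coefficient of variation in both groups, 129% in wt and 91.5% in mut. Rpl38, reported in the mouse to act in the translation of Hox mRNAs, was at 547, 163 and 96.8 FPKM in wt and 258, 254, 148, 157 and 414 FPKM in mut.

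This library pattern was common to nearly all canonical genes. Wt replicate 1 was the highest wt library in 74 of 77 genes and mut replicate 5 the highest mut sample in 74. The highest sample of all was wt replicate 1 in 40 genes and mut replicate 5 in 34. Mut replicate 3 was the lowest mut sample in 67 genes and wt replicate 3 the lowest wt sample in 61. Wt replicate 1 stood at a median of 1.78 times the mean of the other wt libraries (0.886 to 9.66 times), and mut replicate 5 at a median of 1.65 times the mean of the other mut samples (0.953 to 4.28 times). The median coefficient of variation of the canonical genes was 36.9% in wt and 33.2% in mut, and their median within-group SD was 0.474 on the log2 scale, against 0.286 over all genes tested.

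**Figure D4:**
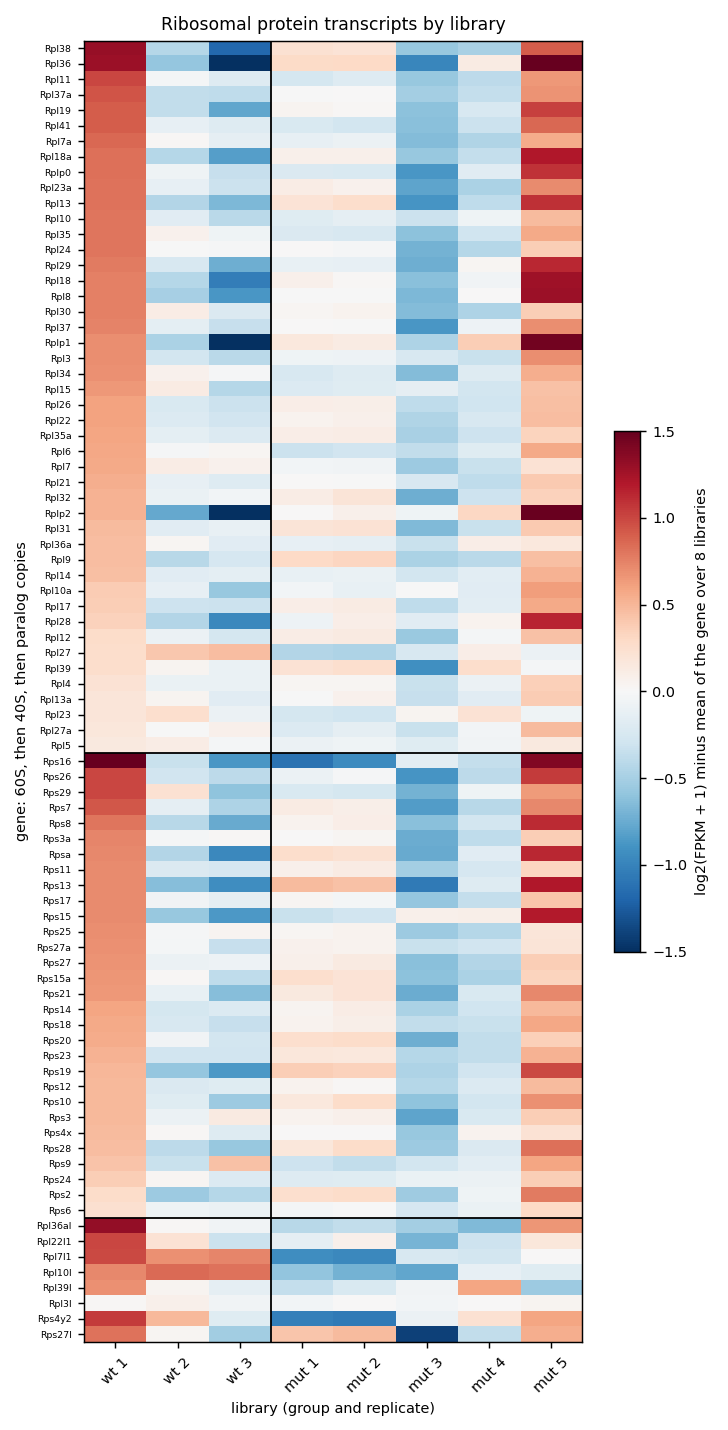
Deviation of log2(FPKM + 1) from the mean of each gene over the 8 libraries (colour, limited to ±1.5), with 84 genes in rows (60S, 40S and paralog copies, separated by lines) and libraries in columns (wt left of the vertical line, mut right of it). Most canonical genes are above their mean in wt replicate 1 and mut replicate 5 and below it in mut replicate 3, whereas Rpl10l and Rpl7l1 are above it in the 3 wt libraries.

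Over the 7 samples, the deviations of 2 canonical genes from their group means had a median Pearson correlation of 0.918, taken over 2926 gene pairs, of which 96.1% were positive; the points of each pair share their libraries, depth and scaling. In 72 of the 77 genes the deviations correlated at above 0.8 with the mean canonical deviation. The 5 exceptions were Rpl27 (-0.16), Rpl23 (-0.02), Rpl39 (0.52), Rps9 (0.62) and Rpl27a (0.78), named after their values were seen. Rpl23, which like Rpl11 can bind Mdm2, was at 464, 487 and 384 FPKM in wt and 341, 333, 421, 476 and 392 FPKM in mut, and was thus not highest in wt replicate 1 or in mut replicate 5. Rpl39, at the wall of the peptide tunnel, was at 433, 372 and 339 FPKM in wt and 422, 433, 191, 435 and 355 FPKM in mut, with mut replicate 3 alone far below the rest.

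Rpl27 was the canonical gene whose groups did not overlap, at 431, 476 and 496 FPKM in wt and 264, 259, 303, 386 and 339 FPKM in mut. Its log2 change was -0.55 (SE 0.232, limma adjusted p = 0.155), and -0.03 after rescaling to TPM, which raised the median of all genes tested as well. The pseudogene row Rpl27-ps2 was at 315, 326 and 349 FPKM in wt and 192, 192, 199, 275 and 246 FPKM in mut, a level close to that of the gene and far above the other Rpl27 pseudogenes, which reached at most 3.56 FPKM. Reads that fit both the gene and this copy cannot be told apart in these values, and whether they were shared was not tested.

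The levels followed the base composition of the transcripts in some libraries. GC content of the 76 canonical transcripts with an annotated sequence ran from 41.3% to 60.8%. Across these genes, deviations from the gene mean correlated with GC content at a Spearman rho of -0.55 in wt replicate 2, -0.57 in wt replicate 3 and 0.70 in mut replicate 5, and between -0.12 and 0.27 in the other libraries; genes are not independent replicates. The log2 change correlated with GC content at 0.52. Among the 19 transcripts of lowest GC content, 1 had a log2 change above 0 (median -0.16), and among the 19 of highest GC content 16 did (median 0.34). The stalk genes Rplp1 and Rplp2 are among the latter, at 57.3% and 55.6%. The same coefficients over 10202 other protein-coding genes were -0.33, -0.24 and 0.24 in these libraries and 0.28 for the log2 change. Canonical transcripts were also short, with a median of 740 bases against 2796 bases for the other protein-coding genes.

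**Figure D5:**
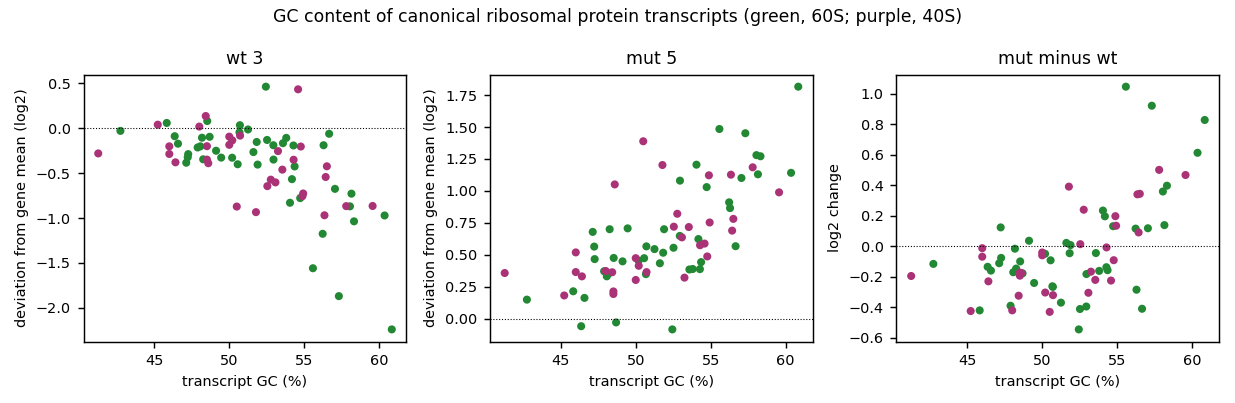
GC content of 76 canonical transcripts against the deviation from the gene mean on the log2 scale in wt replicate 3 (left) and mut replicate 5 (middle), and against the log2 change, mut minus wt (right); points are genes, green for 60S and purple for 40S. Deviations fall with GC content in wt replicate 3 (rho -0.57) and rise with it in mut replicate 5 (rho 0.70).

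Other short transcripts also deviated in these libraries, to an extent that differed between libraries and with GC content. The median deviation of the canonical genes was 0.65 in wt replicate 1, 0.56 in mut replicate 5 and -0.54 in mut replicate 3. For 803 other protein-coding genes with transcripts under 1000 bases it was 0.46, 0.21 and -0.25, and for 9399 longer ones 0.15, 0.21 and -0.08. The 284 short genes with a GC content of 55% or more were at 0.43, 0.45 and -0.23, and the 111 short genes with a GC content under 45% at 0.48, 0.048 and -0.28. Over all genes tested the values were 0.15, 0.18 and -0.10. Some related lists were about as high in wt replicate 1 but lower in mut replicate 5. RNA polymerase I genes were at 0.68, 0.092 and -0.17, and ribosome assembly factors at 0.62, 0.073 and -0.12. Elongation factors were at 0.65, 0.29 and -0.28, and other transcripts with a TOP tract at 0.65, 0.37 and -0.28. Further lists were less high in wt replicate 1. Initiation factors were at 0.52, 0.16 and -0.20, chaperones and importers of ribosomal proteins at 0.56, 0.16 and 0.0074, and noncoding hosts of snoRNAs at 0.53, 0.24 and -0.46. The mTORC1 and TOP regulators were at 0.28, 0.26 and 0.086, and the MYC family at 0.33, 0.055 and 0.44. Ribosomal proteins outside the naming rule were higher than the canonical genes in wt replicate 1 and mut replicate 5, at 0.75, 0.97 and -0.70. The part of transcript length and GC content in the library pattern was not tested.

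The processed-pseudogene rows shared only part of that pattern. Over those tested the median deviation was 0.041 in wt replicate 1, -0.086 in mut replicate 5 and -0.34 in mut replicate 3. It was -0.26 and -0.33 in mut replicates 1 and 2. Of 171 such rows 86 were tested, 2 fell (Rps12-ps5, log2 change -1.40, limma adjusted p = 0.0270, and Rpl7a-ps5, -0.67, adjusted p = 0.0403) and 0 rose, where 4.54% of all genes tested were called lower. The count called was 0 without any wt replicate in turn or without mut replicates 1 and 2, 1 without mut replicate 4 or 5, and 0 after rescaling to TPM or with no filter. Their summed level was 988, 1092 and 1251 FPKM in wt and 684, 679, 673, 995 and 832 FPKM in mut, so wt replicate 3, and not replicate 1, was highest. A log2 change below 0 was seen in 77 of the 86 (median -0.34), and in 38 of 86 after rescaling to TPM (median 0.05). Rescaling also raised the median of all genes tested, and relative to that median these rows stood at -0.317 before and -0.319 after it. In 15 of them all mut samples lay below all wt samples, 17.4% of the 86, where 16.2% of all genes tested did. Reads of a gene that fit a pseudogene, and the reverse, cannot be told apart in these values.

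Transcription start sites were compared with the TOP rule in RefSeq promoters (GRCm38.p6), in which 64 of the 85 genes were found. A C at the annotated first base followed by at least 4 further C or T was present in 13 of 57 canonical genes (22.8%), in 0 of 7 paralog copies and in 3.01% of all 27025 genes in the table. A tract that begins a few bases away from the annotated first base is not counted by this rule. The share of genes with such a tract was not computed. The motif CTTTCC, read on the transcribed strand in the 30 bases around the start, was present in 15.8% of the canonical genes and in 1.67% of all genes. The starts of 4 genes with the tract and of the 2 copies that fell are shown, because they set the typical tract beside starts without it; capitals mark the pyrimidine run from the first base, or the first base alone.
Rplp2 (chr7:141447636-141447665, plus strand): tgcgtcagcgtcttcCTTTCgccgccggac
Rps27 (chr3:90213634-90213663, minus strand): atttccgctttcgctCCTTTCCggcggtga
Rpl38 (chr11:114668565-114668594, plus strand): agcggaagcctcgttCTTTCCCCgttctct
Rpl28 (chr7:4792950-4792979, plus strand): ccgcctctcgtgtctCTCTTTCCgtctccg
Rpl10l (chr12:66284387-66284416, minus strand): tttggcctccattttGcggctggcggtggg
Rpl7l1 (chr17:46782642-46782671, minus strand): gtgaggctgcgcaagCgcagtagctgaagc
Genes with the tract had changes of either sign. Rplp2 had the largest positive log2 change among the ribosomal protein genes at 1.05. Rps27, known for a zinc finger on the 40S surface, was at 1383, 813 and 817 FPKM in wt and 911, 946, 558, 635 and 1113 FPKM in mut, with a log2 change of -0.32 (limma adjusted p = 0.557). A match describes the letters in the window only.

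Among genes that build ribosomes, the assembly factors held most of the calls. Of 108 listed assembly factors 103 were tested, 28 fell, 0 rose and 75 did not pass, where 4.54% of all genes tested were called lower. They had a median log2 change of -0.61, with 102 below 0 (70 of 103 after rescaling to TPM, median -0.14, where the median of all genes was 0.37). Rpf1, a factor of 60S maturation, was at 37.7, 37.6 and 33.0 FPKM in wt and 13.4, 15.5, 14.1, 15.9 and 19.6 FPKM in mut. Riok2, a kinase of late 40S maturation, was at 26.8, 20.6 and 19.5 FPKM in wt and 8.19, 8.02, 9.49, 10.5 and 11.3 FPKM in mut. In both genes every mut library was below every wt library, and the log2 changes were -1.14 and -1.10 (limma adjusted p = 0.0258 and 0.0275). Rpf2, which brings the 5S particle into the early large subunit, fell by 1.12, and Wdr12, a part of the PeBoW complex of 60S assembly, fell by 1.04 (limma adjusted p = 0.0307 and 0.0312). The count of assembly factors called was 0 without any wt replicate in turn or without mut replicates 1 and 2, and 2 without mut replicate 4. It was also 0 after rescaling to TPM, with no filter and with the feeder covariate, and 50 with median-of-ratios scaling. The median was between -0.70 and -0.51 in all fits that left out a library, -0.61 with no filter (102 below 0) and -0.48 with the feeder covariate (97 of 103 below 0).

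Of the genes for RNA polymerase I, which transcribes rRNA, 13 were tested and 1 fell: Taf1d, of its promoter selectivity complex, was at 109.8, 98.5 and 102 FPKM in wt and 51.1, 48.2, 69.3, 42.5 and 56.5 FPKM in mut (log2 change -0.93, limma adjusted p = 0.0412). Of 33 initiation factors tested 1 fell, Eif2b1, a subunit of the eIF2 exchange factor, at 27.2, 21.95 and 27.6 FPKM in wt and 7.05, 6.70, 9.40, 7.81 and 10.5 FPKM in mut (log2 change -1.47, limma adjusted p = 0.0205). Without a wt replicate in turn, the adjusted p of Taf1d was 0.112 to 0.144 and that of Eif2b1 0.0787 to 0.118, and without mut replicates 1 and 2 they were 0.0815 and 0.057. Taf1d also lost the call without mut replicate 4 (adjusted p = 0.0740) and without mut replicate 5 (0.0559). Of 7 elongation factors 1 fell, Eef1e1, listed there by its name and known as a scaffold protein of the tRNA synthetase complex, with a log2 change of -0.98 (limma adjusted p = 0.0476), a call that held only without mut replicate 5 (adjusted p = 0.0439, against 0.0661 to 0.152 without another) when a sample was left out. With 4.54% of all genes tested called lower, a single call in each of these 3 lists says nothing by itself about the list. The median log2 change was -0.67 for the RNA polymerase I genes (12 of 13 below 0, 11 with an unadjusted limma p below 0.05). It was -0.45 for the initiation factors (28 of 33, and 11) and -0.32 for the elongation factors (4 of 7, and 2). Over all genes tested, 30.3% had an unadjusted p below 0.05. Relative to the all-gene median, the 3 medians were -0.64, -0.43 and -0.29 before and -0.55, -0.34 and -0.17 after rescaling to TPM. None of the 10 chaperones and importers of ribosomal proteins, the 20 other transcripts with a TOP tract and the 14 mTORC1 and TOP regulators passed (0 called; 3, 5 and 2 with an unadjusted p below 0.05), with median log2 changes of -0.42, -0.26 and 0.01, and 0.067, 0.25 and 0.43 after rescaling to TPM. Relative to the median of all genes tested these medians were -0.39, -0.23 and 0.04 before and -0.30, -0.11 and 0.06 after rescaling. The median of the other TOP transcripts also moved to -0.058 without wt replicate 1, -0.40 without wt replicate 3, -0.15 without mut replicate 3, -0.50 without mut replicate 5 and 0.098 with the feeder covariate. That of the chaperones was -0.17 with the feeder covariate, and that of the regulators ran from -0.06 without mut replicate 5 to 0.20 without wt replicate 1. With the feeder covariate the medians of the RNA polymerase I genes, initiation factors and elongation factors were -0.51, -0.27 and 0.056. Whether the assembly factors and the ribosomal proteins differ from each other in their change was not tested.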

How the data were processed

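RNA-seq of 8 libraries was analysed: 5 mut and 3 wt, grouped by sample title. The authors deposited FPKM, 1 column per library; STAR and Cufflinks are named per the submitters' processing notes, and their versions, the build, annotation, strandedness, read length and depth are not given in the sources used here, so no count test was used. The table had 37305 gene rows and 34369 symbols; values of the 265 symbols on several rows were added up, and missing values (31 cells, 23 rows) stayed missing. FPKM scale with transcript length and with the other transcripts of a library, and their sums ran from 753985 to 1780534. Nuclear protein-coding rows other than the ribosomal protein genes held 118921 to 168454 of these sums. Most of the sum that TPM rescaling divides by therefore came from rows that are not nuclear protein-coding genes.

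Mut replicates 1 and 2 were averaged as 1 sample. At low values 23.4% of genes in mut replicate 2 stood at a single common ratio to mut replicate 1, compared with 1.24% to 3.26% in the other libraries. The limma package 3.58.1 (R 4.3.3) was applied to log2(FPKM + 1) of genes whose mean reached 1 FPKM (eBayes with a trend, Benjamini-Hochberg adjustment over 11949 genes, threshold 0.05). Fold changes on this scale understate the change of low genes. The fit was tested on simulated data. Ratios of paralogs to parents (pseudocount 0.1) had exact two-sided permutation tests, run with SciPy 1.17.1 in Python 3.11.15; pandas 2.3.3 and NumPy 2.4.6 handled the tables and matplotlib 3.10.9 the figures.

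Positions, exons, GC content and coding sequences came from GENCODE M21 (GRCm38) by gene ID, and promoters from RefSeq (GRCm38.p6). The Rpl24 row carries an ID that GENCODE M21 gives to Zbtb11, so no position, length or GC content was used for it. The text names called members, paralogs and their parents, the 5 highest and 5 lowest by mean, the 6 with the largest change, the 5 most variable in each group, and up to 4 called genes of each related list (2 where none was called); other genes appear in structural groups or are marked. A member of the rule and a gene of a related list are not reported here. Members and lists were chosen with earlier results of these data known. Same-numbered wt and mut samples were not paired: their deviations correlated at 0.0127, -0.0117 and 0.0514. Alternatives covered pseudocount, filter, scaling, the averaged pair, blocking, array weights, a feeder covariate, rows by gene ID and leaving out samples.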

Additional observations from a re-analysis of the deposited data

Results flagged for a closer look

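In 3 genes, mut replicate 5 lay far above the other mut samples relative to their range (Dixon's ratio above 0.829 with 4 samples), out of 40 such groups of values examined; chance alone flags about 1 in 20. The genes were Rplp2 at 612 FPKM against 208 to 271 FPKM in the other mut libraries, Rpl36al at 114 FPKM against 45.2 to 55.3 FPKM, and Rps24 at 1408 FPKM against 958 to 1032 FPKM. The same library was the highest mut sample in 74 of the 77 canonical genes. It also held the highest summed primitive endoderm markers, 278 FPKM against 46.3 to 102 FPKM in the other mut libraries, and their part in these values was not tested.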

How the results depend on the processing

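Of 895 genes called, 2 were ribosomal protein genes and 31 were in the related lists. Ribosomal protein genes called were 0 with no filter on low values, after TPM rescaling, with a replicate block and with the feeder covariate, and 1 with a filter at 5 FPKM (Rpl7l1). With median-of-ratios or protein-coding sum scaling they were again 2. They ranged from 0 to 2 over the fits without one wt or mut sample, and were 0 without wt replicate 1 and mut replicate 5 together. All genes called were 4 with no filter, 2150 with median-of-ratios scaling, 2219 with protein-coding sum scaling, 2203 with all 8 libraries separate, 1 with a replicate block, 2752 with array weights, 3 with the feeder covariate, 4 without wt replicate 1 and mut replicate 5, and 2 to 1096 without one sample (581 without mut replicate 5). In the related lists the counts were 0, 73, 53, 65, 0, 76, 0, 0 and 0 to 32 in that order, and 1 after TPM rescaling (1113 genes in all). The replicate numbers pair no samples, so the block is only another fit.

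TPM rescaling took the all-gene median log2 change to 0.37, that of the ribosomal protein genes to 0.38 and the log2 ratio of their sums to 0.37; protein-coding sum scaling moved the first 2 to 0.12 and 0.05. Relative to all genes the median of the ribosomal protein genes lay between -0.22 and 0.10 in every fit. With all 8 libraries separate, the log2 ratios to the parent of Rpl7l1 (-0.93) and Rpl10l (-1.41) had an unadjusted exact permutation p of 0.0357, the smallest possible there. That setting counts the near-identical mut replicates 1 and 2 as separate samples, so this p does not measure the spread between independent samples. Over the fits without one sample, the ratio of Rpl39l to its parent lay between -0.64 and 0.0095 (highest without mut replicate 5), that of Rps27l between -0.19 and 0.26 (-0.13 without the mut pair), and the log2 change of Rpl36 between -0.036 (without wt replicate 3) and 1.72. With 4 against 3 samples of unknown depth and a shared library pattern, differences of the canonical genes could be missed, and not only small ones. Rplp2, with a log2 change of 1.05 (SE 0.542), did not pass. The smallest detectable difference was not computed, and the wt libraries may share an embryo.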

Other observations

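Genes next to the ribosomal proteins by role, but outside the naming rule, showed the same libraries at the top. Fau, which encodes a ubiquitin-like protein fused to the small-subunit protein eS30, was at 169, 70.4 and 61.3 FPKM in wt and 83.9, 86.7, 94.4, 78.8 and 207 FPKM in mut. Gnb2l1, the older symbol of the 40S scaffold protein Rack1, was at 528, 239 and 228 FPKM in wt and 376, 376, 193, 244 and 487 FPKM in mut. In both genes wt replicate 1 and mut replicate 5 were the highest of their groups, the groups overlapped, and the limma adjusted p was 0.732 and 0.992.

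Of the MYC family, which drives transcription of many ribosome assembly genes, 6 genes were tested and 0 passed, 2 with an unadjusted p below 0.05; without mut replicate 3, and also with array weights, 2 of the 6 were called. Mycn was at 44.1, 34.99 and 38.9 FPKM in wt and 8.19, 7.67, 37.1, 16.4 and 17.7 FPKM in mut (log2 change -1.14, limma adjusted p = 0.117). Mut replicate 3 lay within the wt range and the other mut libraries below it. Myc was at 3.07, 3.20 and 3.67 FPKM in wt and 0.467, 0.582, 4.06, 0.791 and 0.965 FPKM in mut (log2 change -0.92, limma adjusted p = 0.149), with mut replicate 3 again the exception and here the highest library of all. Mut replicate 3 was also the lowest mut sample in 67 of the 77 canonical ribosomal protein genes.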
